A study of Xenopus laevis with 12 samples.

Results

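Animal caps of the frog Xenopus laevis that had been injected with an antisense oligonucleotide and induced with 2 factors were set against caps with neither, the widest contrast of the design. The comparison rested on 6 of the 12 arrays of the series, namely the 3 titled as injected caps with activin and retinoic acid (lhx1-AS/AcRA) and the 3 titled as control caps (C), taken by title and paired by experiments I, II and III. The lhx1-AS/AcRA caps came from embryos that had received 800 pg of lhx1-AS, a chemically modified (DEED) antisense oligonucleotide against lhx1 RNA, at the 2-cell stage, and were cultured with 10 ng/ml activin and 0.0001 M retinoic acid (AcRA), whereas the C caps were neither injected nor treated. AcRA caps of uninjected embryos and untreated caps of injected embryos (lhx1-AS) made up the other 6 arrays, which entered the same model and are given beside the main values for some genes. All caps were harvested when sibling embryos were at stage 12.5 by the sample labels, while the text of the study gives a later stage and another RNA extraction reagent. Culture was for 24 hours at 14 C in all groups. Each array read the RNA of 12 pooled caps. Since no caps had received a control oligonucleotide, what followed from lhx1 itself and what followed from being injected cannot be told apart, nor can the injection and the AcRA treatment within this comparison.

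The animal cap is the roof of the blastula, a sheet of pluripotent ectoderm that becomes a ciliated, mucus-secreting epidermis under bone morphogenetic protein (BMP) signals when cultured alone. Activin, a ligand of the TGF-beta family, stands in for the embryo's Nodal signals and turns caps into mesoderm and endoderm, with higher doses giving the dorsal organizer and anterior endoderm. Retinoic acid gives cells a trunk identity by switching on Hox genes and its own breakdown enzymes. The pair of factors is used in caps to obtain pronephric kidney, which in the embryo arises from intermediate mesoderm that expresses lhx1.

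The targeted gene was read first, as a check of the labels. Lhx1, a LIM homeobox transcription factor of the organizer and intermediate mesoderm, read 1144, 991 and 1614 on the lhx1-AS/AcRA-labelled arrays, 316, 823 and 779 on the AcRA arrays, 1.55, 42.6 and 3.2 on the lhx1-AS arrays and 19.8, 2.19 and 2.6 on the C arrays. Each signal is the linear brightness of 1 probe set, the set of probes that reads 1 transcript, on an array scaled to a common mean. The lhx1-AS/AcRA and C signals did not overlap, and the lhx1 RNA was higher in the lhx1-AS/AcRA caps than in C by 7.98 ± 1.06 on the log2 scale (± standard error throughout, adjusted p = 7.59e-05, limma). Between the lhx1-AS/AcRA and AcRA arrays the difference was 1.06 ± 1.06 (adjusted p = 0.547). The lhx1 RNA was thus not lower on the arrays labelled as injected and induced, so the labels could not be checked by the target, and the group is called by its label in all that follows.

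Over the whole array the lhx1-AS/AcRA caps differed widely from C. Within groups, arrays correlated at 0.887 to 0.905 across probe sets for lhx1-AS/AcRA and 0.9025 to 0.913 for C, and the median signal was 107 to 121 on the lhx1-AS/AcRA arrays, against 124 to 149 on the C arrays. Of 15491 probe sets, 2236 were called higher (14.4%) and 2646 lower (17.1%) at an adjusted p under 0.05 in limma with the experiment as a block. Without the block the counts were 1403 and 1915, and without experiment III they were 1284 and 1765. With each array scaled to 1 median the split moved to 3221 higher and 2123 lower (60.3 and 39.7% of the calls, against 45.8 and 54.2% as deposited), and quantile normalization gave 51.8 and 48.2%. The median change over all probe sets was 0.28 with arrays scaled to 1 median and 0.12 after quantile normalization, against 0.05 as deposited. The calls that were higher had a median size of 1.29 and those that were lower 1.84 on the log2 scale, and 128 and 138 of them reached 5. The signals of the groups did not overlap for 2711 probe sets that were higher in all lhx1-AS/AcRA arrays than in all C arrays (17.5%) and for 2993 that were lower (19.3%). Within the calls the groups were apart for 1849 of the higher and 2321 of the lower probe sets. The experiments pulled the same way for 2208 and 2631 of them. In pooled explants, fewer cells of a type and less RNA per cell cannot be told apart.

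**Figure D1:**
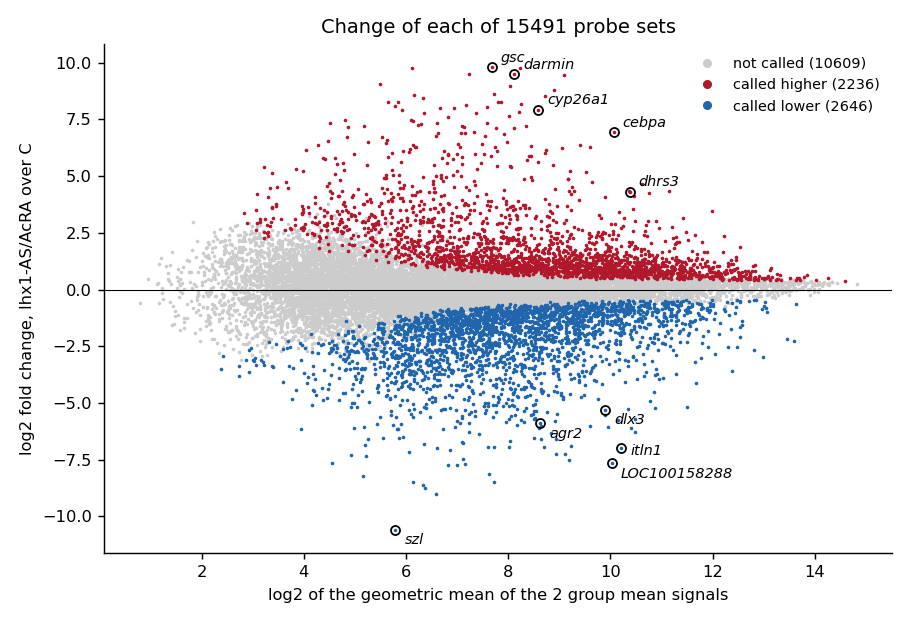
Log2 fold change of lhx1-AS/AcRA over C (vertical) against the log2 of the geometric mean of the 2 group mean signals (horizontal), 1 point per probe set, with the called probe sets in red (2236 higher) and blue (2646 lower). Circled genes reach 9.80 for gsc at the top and -10.59 for szl at the bottom, and calls need larger changes where signals are dim.

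The array gave single gene names to 9304 probe sets, and a gene was read by its brightest probe set unless stated. Gene copies marked .L and .S shared a name, so another probe set of a gene can read the other copy. Read that way, 16.8% of all 6505 named genes were called higher and 17.9% lower, against 14.4 and 17.1% of all probe sets. Signals in the group where a gene was silent were often below 50, and no detection call was at hand, so the size of the largest changes depends on how dim signals are read. Adding 16 to every signal before log2 left the change of gsc at 7.43, against 9.80 as computed, and that of szl at -6.96, against -10.59. The rank of the largest changes moved with it, since with 16 added pcdh8.2 (8.18), darmin (7.99), eomes (7.52) and vegt (7.47) exceeded gsc and LOC100158288 (-7.09) fell below szl. The list medians given below shrank as well with 16 added, to 1.27 for activin and Nodal, 1.70 for Hox, 0.77 for early kidney, 0.44 for retinoic acid, 0.28 for paraxial mesoderm and muscle, 0.33 for neural, 0.51 for Wnt and 1.12 for FGF genes. Of the lower calls, 717 had a mean signal under 50 in the lhx1-AS/AcRA caps, and of the higher calls 525 had one under 50 in C. The direction of the 124 called genes named here was the same under every alternative of scaling, offset, model and left-out arrays.

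Of 31 measured genes of the activin and Nodal signal, 16 were higher (51.6%), 2 lower (6.45%) and 13 not called. Over all probe sets 14.4% were higher and 17.1% lower. The list held gsc, eomes, vegt, nodal1 and cer1 of the 12 largest increases, with a median change of 2.13 against 0.05 over all probe sets. Nodal1, a Nodal ligand, had signals of 1181, 1547 and 1252 in the lhx1-AS/AcRA caps, against 1.18, 7.19 and 6.18 in C. The change was 8.46 ± 0.68 (adjusted p = 1.38e-06, limma), and all lhx1-AS/AcRA arrays lay more than an order of magnitude above all C arrays. Eomes, a T-box factor that Nodal signals switch on at the start of mesendoderm formation, read 4339.9, 4253 and 6873 in the lhx1-AS/AcRA caps and 1.73, 2.23 and 48.8 in C. Its change was 9.78 ± 0.95 (adjusted p = 5.95e-06). Vegt, the T-box factor that in the embryo drives endoderm and mesoderm from the vegetal side, read 6117, 7299.8 and 8129.9 in the lhx1-AS/AcRA caps, against 2.19, 31.1 and 60.2 in C, a change of 8.80 ± 0.69. For both T-box genes the C arrays spread widely at the dim end and still stayed below every lhx1-AS/AcRA array. Lefty, a secreted Nodal inhibitor that the signal itself induces, had 512, 1157 and 1396 in the lhx1-AS/AcRA caps and 18.2, 3.93 and 6.56 in C, with a change of 6.92 ± 0.80 (adjusted p = 2.62e-05). Bix1.2, a homeobox target of the same signal, changed by 4.92 ± 1.21 (adjusted p = 0.00707). That call was lost without experiment III (adjusted p = 0.0916). Mixer, a related homeobox gene of the endoderm, changed by 2.84 ± 1.03 and missed the threshold at an adjusted p of 0.0507. It was called higher after quantile normalization (0.0456), with arrays scaled to 1 median (0.0312), with 16 or 64 added (0.00711 and 0.00275), on the 6 compared arrays alone (0.0335) and with the experiment III array of C left out (0.0241), and its other probe set was called higher at 5.32. The pan-mesodermal T-box gene tbxt (brachyury), named after its values were seen, read 56.4, 231 and 85.3 in the lhx1-AS/AcRA caps and 8.69, 9.95 and 54.4 in C, a change of 2.63 ± 0.76 (adjusted p = 0.0176). Its call was lost without the experiment II array of lhx1-AS/AcRA (adjusted p = 0.1), the C array of experiment I (0.0699), that of experiment II (0.103), or the whole of experiment I (0.0609) or II (0.241). The receptor gene acvr1, the brightest member that was not called, had 5127, 3123 and 3169.8 in the lhx1-AS/AcRA caps and 6363, 7299.8 and 4769 in C (adjusted p = 0.0536), and was called lower after quantile normalization (0.0239), with 16 or 64 added (0.04 and 0.0388), with the dimmest 40% of probe sets left out (0.0441), on the 6 compared arrays alone (0.0322) and without experiment I (0.00935). Fst, the activin-binding protein follistatin, had 32.6, 65.3 and 129.7 in the lhx1-AS/AcRA caps, against 17.1, 10.4 and 30.8 in C, and did not pass (adjusted p = 0.134), although with 16 or 64 added to the signal it did, at an adjusted p of 0.0229 and 0.0223.

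Organizer genes also had many calls. The organizer is the dorsal signalling centre of the gastrula that secretes antagonists of BMP and Wnt. Of 34 genes of the list 18 were higher (52.9%) and 1, the secreted-protein gene agr2, was lower (2.94%), with a median of 2.01. The shares over all probe sets were 14.4 and 17.1%. Gsc (goosecoid), the homeobox marker of the organizer, had the largest increase as computed of all genes with 1 name at 9.80 ± 1.09 (adjusted p = 2e-05, limma). Its signals were 1823, 4824 and 7276 in the lhx1-AS/AcRA caps and 1.32, 2.99 and 22.8 in C, and its 3 probe sets were all higher. Chrd.1, the BMP antagonist chordin, read 3889, 3075 and 3131 in the lhx1-AS/AcRA caps, against 19.0, 7.49 and 33.2 in C, a change of 7.64 ± 0.65. The lhx1-AS/AcRA arrays lay close together here and the C arrays were near the bottom of the scale. Frzb, a secreted Wnt antagonist, had 2077, 1787 and 3940.0 in the lhx1-AS/AcRA caps and 15.9, 5.2 and 67.1 in C (7.11 ± 0.65). Dkk1, the Wnt antagonist of head formation, had 196, 165 and 135 in the lhx1-AS/AcRA caps and 67.0, 2.26 and 1.96 in C (4.61 ± 0.93, adjusted p = 0.00196). For dkk1 a single C array, that of experiment I, stood well above the other two. Admp, a BMP-like ligand made in the organizer, changed by 6.29 ± 0.73, and cer1, the head inducer cerberus that blocks Nodal, BMP and Wnt, by 8.16 ± 0.74. The forkhead gene foxa4, named after its values were seen, read 1189, 995 and 1358 in the lhx1-AS/AcRA caps and 0.717, 10.6 and 21.4 in C. Otx2, the homeobox gene of head mesendoderm and anterior neural plate, read 2386, 1861 and 3788 in the lhx1-AS/AcRA caps, against 456, 174 and 233 in C, where it was already present, a change of 3.28 ± 0.54 (adjusted p = 0.000437).

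Endoderm had a median change of 2.78, next to that of the Hox genes as computed. By limma 13 of 22 genes were higher (59.1%) and 0 lower, against 14.4 and 17.1% over all probe sets. At an unadjusted p under 0.05, 0 were lower, and 0 by the methods' t-test. Darmin, a peptidase gene of the endoderm in Xenopus, had 7816, 5580.1 and 7073 in the lhx1-AS/AcRA caps, against 13.2, 3.76 and 17.1 in C, a change of 9.48 ± 0.67 (adjusted p = 6.1e-07). Sox17b.1, an HMG-box factor that commits cells to endoderm, was higher by 8.26 ± 0.60 in the probe set that the naming rule picked, with 710.5, 649.7 and 1103 in the lhx1-AS/AcRA caps and 1.27, 2.71 and 5.19 in C. Both genes were at or near the bottom of the scale in C on every array. Gata4, a GATA factor of endoderm and heart, had 1322, 883 and 2272 in the lhx1-AS/AcRA caps and 5.06, 15.0 and 20.8 in C (6.89 ± 0.82). Cebpa, a leucine zipper factor of liver and other endodermal organs and of myeloid cells, counted under the blood list, read 10947, 9214 and 10492 in the lhx1-AS/AcRA caps and 31.5, 85.0 and 219 in C. Its change was 6.93 ± 0.49 (adjusted p = 6.01e-07). Slc5a8.1, a sodium-coupled monocarboxylate transporter that the kidney and gut also use, rose by 8.08 ± 0.86 with 1586, 698 and 458 in the lhx1-AS/AcRA caps and 5.76, 2.03 and 2.2 in C. Among the 12 largest increases were also hrg, the plasma protein histidine-rich glycoprotein (9.78 ± 0.75), and nat8.6, an N-acetyltransferase family member (9.51 ± 0.97).

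Early and posterior mesoderm had 18 of 39 genes higher (46.2%) and 2 lower (5.13%), against 14.4 and 17.1% over all probe sets, with a median of 1.83. Wnt8a, the ligand that patterns ventral and posterior mesoderm, read 355, 1387 and 428 in the lhx1-AS/AcRA caps, against 16.9, 7.18 and 51.9 in C (5.01 ± 0.58, adjusted p = 2.86e-05, limma). The caudal homeobox gene cdx1 read 352, 1084 and 121 in the lhx1-AS/AcRA caps and 1.66, 2.73 and 3.22 in C (7.2 ± 0.64). Its relative cdx4, another activator of trunk Hox genes, read 134, 503 and 37.1 in the lhx1-AS/AcRA caps and 1.3, 26.2 and 2.72 in C (4.90 ± 0.84). In all 3 of these posterior genes experiment II gave the brightest lhx1-AS/AcRA array. Named genes of the presomitic mesoderm, the tissue that is cut into somites, for which no list of their own was counted, included ripply2.2, pcdh8.2, hes7.2 and mespa. Ripply2.2, a repressor that ends the presomitic state, changed by 8.25 ± 0.73, pcdh8.2, the protocadherin of the presomitic and axial mesoderm, by 9.47 ± 0.84, and hes7.2, a repressor of the segmentation clock family, by 8.95 ± 0.86. Mespa, which marks the next somite boundary, read 66.9, 97.1 and 209 in the lhx1-AS/AcRA caps and 13.9, 2.18 and 7.55 in C (4.18 ± 0.95), and its call was lost without experiment III (adjusted p = 0.0586). Snai1, the repressor of E-cadherin that mesoderm and neural crest use, read 1142, 356 and 909 in the lhx1-AS/AcRA caps, against 46.9, 50.8 and 45.5 in C (3.91 ± 0.46). The receptor gene ror2 of the non-canonical Wnt route, which is needed for convergent extension, read 2407, 956 and 1029 in the lhx1-AS/AcRA caps and 28.4, 5.66 and 4.78 in C (7.19 ± 0.62). The apelin receptor gene aplnr of early mesoderm and vessels read 1401, 2621 and 2945 in the lhx1-AS/AcRA caps and 22.5, 14.8 and 45.1 in C (6.49 ± 0.47).

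**Figure D2:**
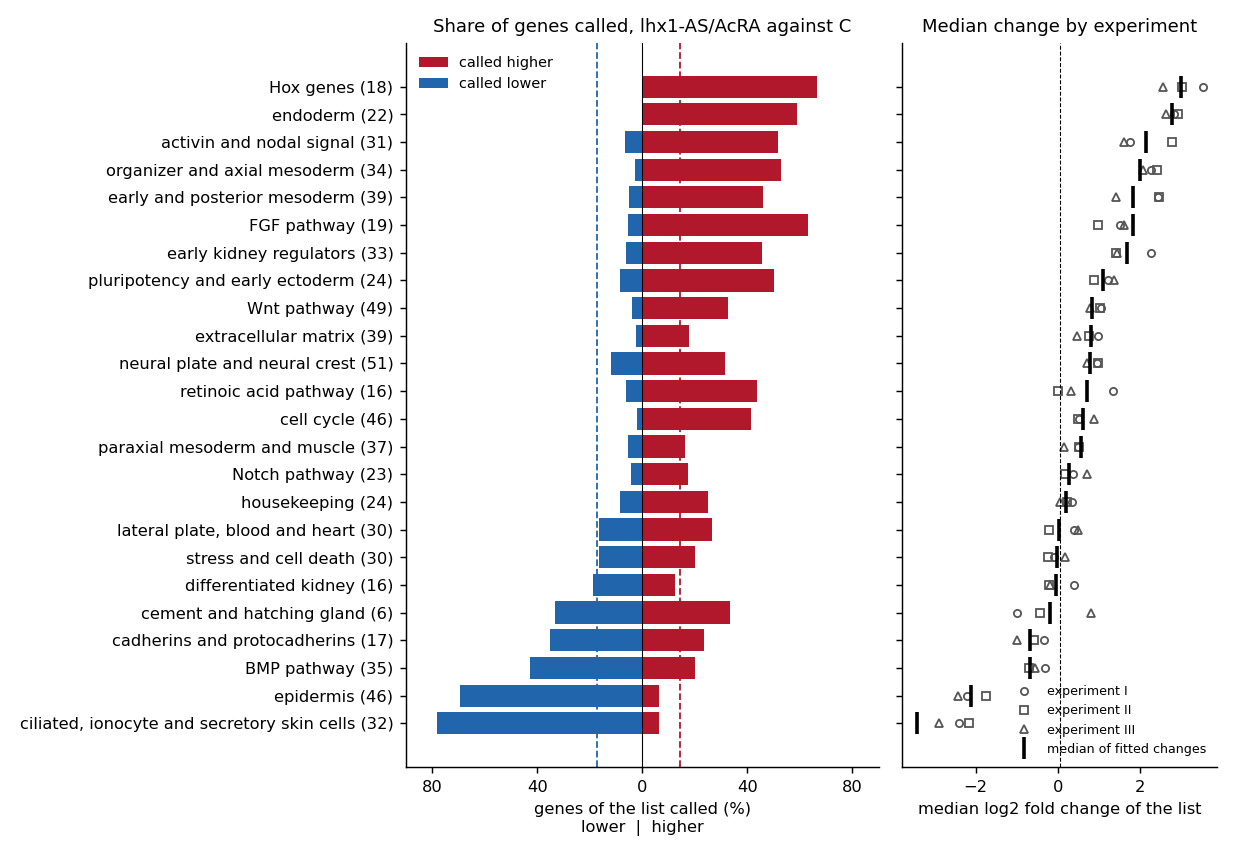
Left, share of the genes of each list called higher (red, to the right) and lower (blue, to the left) in lhx1-AS/AcRA against C, with the number of measured genes in brackets and dashed lines at the shares over all probe sets, 14.4 and 17.1%. Right, median log2 fold change of each list in each experiment (open symbols) and of the fitted changes (bars), with a dashed line at the median over all probe sets, 0.05. Hox, endoderm and organizer lists lie on the right in every experiment, and the 2 skin lists on the left in every experiment.

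Of the retinoic acid genes, 7 of 16 were higher (43.75%) and 1 lower (6.25%), against 14.4 and 17.1% over all probe sets. The median was 0.72, and the 2 largest increases were of enzymes that limit the signal. The median was 0.35 without the experiment I array of lhx1-AS/AcRA, 0.45 with the C array of experiment I left out, 0.22 without that experiment and 1.14 without the experiment II array of lhx1-AS/AcRA. Cyp26a1, which breaks down retinoic acid and is itself induced by it, had 7445, 4832 and 5139 in the lhx1-AS/AcRA caps, against 17.7, 40.8 and 18.0 in C, a change of 7.92 ± 0.42 (adjusted p = 7.95e-08, limma). Dhrs3, which returns retinal to retinol, had 6433, 5229 and 5913 in the lhx1-AS/AcRA caps and 262, 397 and 242 in C (4.32 ± 0.20). The 3 lhx1-AS/AcRA arrays were close together and far from C for both enzymes. Cyp26c1, another member of the breakdown family, rose by 4.06 ± 0.71, with 81.5, 86.2 and 215 in the lhx1-AS/AcRA caps and 10.9, 6.32 and 4.73 in C. Enzymes that make retinoic acid were higher as well. Rdh10, which oxidises retinol, read 2293, 2548 and 2402 in the lhx1-AS/AcRA caps and 429.8, 939 and 242 in C (2.39 ± 0.30), with its other probe set at 0.23 and not called. Aldh1a2, which makes the final product, read 169, 197 and 192 in the lhx1-AS/AcRA caps and 3.72, 33.8 and 81.7 in C (3.09 ± 0.62, adjusted p = 0.00194), and its change was 1.89 without experiment I. The receptor genes moved little, with changes of 0.89 ± 0.26 for rarg and 1.3 ± 0.44 for rara, and neither call was firm. That of rara was lost without the block (adjusted p = 0.154) and without any single array but the experiment III array of lhx1-AS/AcRA (0.0582 to 0.152) or any experiment (0.0813 to 0.271). That of rarg was lost without the arrays of experiment I or III from either group (0.0513 to 0.116) and without either of those experiments (0.108 and 0.231). The corepressor gene ncor1 had 1589.6, 726 and 792 in the lhx1-AS/AcRA caps, against 1435, 907 and 831 in C (adjusted p = 0.791).

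Hox genes, which encode position along the body axis, had a median change of 2.99, the highest of the 24 lists as computed. By limma 12 of 18 were higher (66.7%) and 0 lower, against 14.4 and 17.1% over all probe sets. The endoderm median was above that of the Hox genes with 16 added (2.17, against 1.70) or 64 added (1.51, against 0.93), without the experiment I array of lhx1-AS/AcRA (3.26, against 2.81) and without experiment I (3.12, against 3.07). It was also the higher one with the experiment III array of C left out. At an unadjusted p under 0.05, 0 were lower, and 0 by the methods' t-test. Without the block 9 of 18 were higher. Hoxa3 and hoxa2, from the front end of the clusters, are genes of the hindbrain and pharyngeal region. Hoxa3 read 3502, 3188 and 2792 in the lhx1-AS/AcRA caps, against 81.4, 34.7 and 212 in C (5.22 ± 0.71, adjusted p = 0.000101). Hoxa2 read 637, 764 and 641 in the lhx1-AS/AcRA caps and 39.1, 32.0 and 20.5 in C (4.52 ± 0.31, adjusted p = 4.94e-07). No lhx1-AS/AcRA array of either gene came near a C array. Hoxb4 read 443, 494 and 294 in the lhx1-AS/AcRA caps and 35.4, 22.3 and 4.93 in C (4.67 ± 0.84). Hoxc5 read 426, 611 and 193 in the lhx1-AS/AcRA caps and 1.95, 27.7 and 3.0 in C (6.08 ± 0.65). Hoxa7 read 160.1, 567 and 521 in the lhx1-AS/AcRA caps and 6.82, 33.8 and 6.72 in C (4.97 ± 0.60). The groups were apart for these trunk genes too, with more spread between experiments. Hoxb7, a trunk gene that the early pronephros also expresses, stayed dim, with 15.97, 69.4 and 83.3 in the lhx1-AS/AcRA caps and 8.47, 18.6 and 17.8 in C. It was called higher at 1.68 ± 0.55 (adjusted p = 0.0327), but not without the block (adjusted p = 0.111) or without any single array but the experiment I array of lhx1-AS/AcRA (0.0607 to 0.137), nor without experiment II (0.161) or III (0.252), and 2 of its 3 probe sets were not called. Hoxc10, from the tail end, changed by 2.02 ± 0.64 and lost its call without the block (adjusted p = 0.087), without the experiment I or III array of lhx1-AS/AcRA (0.122 and 0.103), the C array of experiment II or III (0.127 and 0.057), or any experiment (0.0679 to 0.139). Hoxd8 did not pass (adjusted p = 0.172).

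Regulators of the early kidney rose in part. Of 33 measured, 15 were higher (45.5%) and 2 lower (6.06%), against 14.4 and 17.1% over all probe sets. The median was 1.68, and several of the 15 also belong to other lists, as hoxb4 and lhx1 do. Osr1, a zinc finger gene of intermediate mesoderm that acts before lhx1 in the kidney field, had 1166, 590.2 and 740.2 in the lhx1-AS/AcRA caps, against 28.3, 17.5 and 48.1 in C, a change of 4.8 ± 0.59 (adjusted p = 4.46e-05, limma). Sall1, a zinc finger gene of kidney and limb progenitors, had 4206, 2344 and 2484 in the lhx1-AS/AcRA caps and 597, 303 and 481 in C (2.71 ± 0.21), and its 3 probe sets were all higher. Both genes were well above C on each array. Eya1, a cofactor that acts at the top of the kidney cascade in mice, had 107, 74.9 and 149.5 in the lhx1-AS/AcRA caps and 5.26, 2.06 and 6.46 in C (4.69 ± 0.69). Mecom, a zinc finger gene of the distal pronephros, had 429, 181 and 214 in the lhx1-AS/AcRA caps and 3.32, 16.6 and 40.3 in C (4.29 ± 0.73). Irx3, a homeobox gene of the intermediate tubule and the neural plate, rose by 3.54 ± 1.05 (adjusted p = 0.02), a call that was lost without the lhx1-AS/AcRA or the C array of experiment I (adjusted p = 0.139 and 0.104) and without experiment I or II (0.122 and 0.0731).

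Among the kidney genes that the study names, pax8, pax2, wt1 and nrp1 stayed dim, whereas lhx1, given above, was bright. Pax8, a paired-box gene that with lhx1 sets up the pronephros, had 8.89, 43.9 and 22.7 in the lhx1-AS/AcRA caps and 2.01, 18.7 and 54.2 in C, and the groups overlapped (adjusted p = 0.605, limma). Pax2, its relative, had 50.03, 64.6 and 26.7 in the lhx1-AS/AcRA caps and 42.8, 24 and 23.4 in C (adjusted p = 0.49), and limma called 0 of its 8 probe sets, with 1 at an unadjusted p under 0.05 and 0 by the methods' t-test. Wt1, the zinc finger gene of the glomus, had 19.1, 39.5 and 51.4 in the lhx1-AS/AcRA caps and 3.46, 40.6 and 19.3 in C (adjusted p = 0.215), and nrp1, a semaphorin and VEGF receptor, was also not called (adjusted p = 0.705). At signals this low a change could have escaped detection. The study lists its neuropilin hit as a sequence described as neuropilin 1 like, and whether the nrp1 probe set read here is that entry was not checked. Genes of the differentiated tubule had 2 of 16 higher (12.5%) and 3 lower (18.8%), shares near the 14.4 and 17.1% over all probe sets. Slc22a5, a carnitine transporter of the tubule that the C caps expressed strongly, fell to 154, 239 and 231 in the lhx1-AS/AcRA caps, against 4076, 3044 and 3051 in C (-4.04 ± 0.28). Atp1b2, a beta subunit of the sodium pump, had 382, 222 and 116 in the lhx1-AS/AcRA caps and 4588, 1108 and 2399 in C (-3.43 ± 0.38). Both genes were thus bright in caps that no inducer had reached. Atp1b1, the subunit used as a marker of the pronephric tubule, differed by -0.06 ± 0.20 and was not called (adjusted p = 0.848). The amino acid transporter gene slc7a8, a marker of the proximal tubule, was higher by 1.68 ± 0.28, with 634, 521 and 332 in the lhx1-AS/AcRA caps and 169.7, 122 and 162 in C.

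Genes of muscle gave few calls, while those of blood and heart were called both ways. Of 37 genes of paraxial mesoderm and muscle, 6 were higher (16.2%, near the 14.4% over all probe sets) and 2 lower (median 0.56), and the 6 included ripply2.2, pcdh8.2 and mespa of the presomitic mesoderm. The median was 0.31 without the experiment I array of lhx1-AS/AcRA and 0.35 without that of experiment II, 0.37 without experiment I and 0.30 without experiment II. Myod1, the master regulator of skeletal muscle, had 1.65, 134 and 5.17 in the lhx1-AS/AcRA caps, against 1.17, 15.4 and 9.18 in C (adjusted p = 0.533, limma), and the only signal above 100 was the experiment II array of lhx1-AS/AcRA. The 2 that fell encode proteins of the contractile and energy apparatus. Ckm, a creatine kinase, had 699, 405 and 389.9 in the lhx1-AS/AcRA caps and 3998, 3661 and 4965 in C (-3.12 ± 0.24), while its 2 other probe sets were not called. Tnni2, a troponin subunit, changed by -3.85 ± 0.66. Of 30 genes of lateral plate, blood and heart, 8 were higher (26.7%, against 14.4% over all probe sets) and 5 lower (16.7%, near the 17.1%). Without experiment II 5 were higher. Tal1, a regulator of blood stem cells, was not called (adjusted p = 0.338). Nkx2-3, a homeobox gene of the lateral plate and foregut, fell to 41.5, 21.3 and 59.1 in the lhx1-AS/AcRA caps, against 1764, 933 and 944 in C (-4.95 ± 0.67), whereas its relative nkx2-5, which marks the heart field, differed by -0.91 ± 0.72 (adjusted p = 0.39).

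Most epidermal genes fell. Of 46, 32 were lower (69.6%) and 3 higher (6.52%, with 1 gene higher without experiment III). Over all probe sets 17.1% were lower and 14.4% higher. The median change was -2.12, and the geometric mean signal of the list was 158 to 226 on the lhx1-AS/AcRA arrays, against 633 to 810 on the C arrays. Dlx3, a homeobox gene that BMP switches on in epidermal ectoderm, had 131, 370.2 and 42.7 in the lhx1-AS/AcRA caps and 5211, 5403 and 4416 in C (-5.29 ± 0.40, adjusted p = 9.58e-07, limma). Evpl, the cell envelope protein envoplakin, had 38.6, 62.5 and 37.9 in the lhx1-AS/AcRA caps and 1406, 1156 and 2190.3 in C (-5.08 ± 0.38). The groups lay far apart on both genes. Krt17, a keratin, had 2.94, 1.71 and 9.76 in the lhx1-AS/AcRA caps and 96.1, 112 and 95.2 in C (-4.78 ± 0.73). Tp63, the regulator of basal epidermis, named after its values were seen, had 2.57, 19.2 and 8.53 in the lhx1-AS/AcRA caps and 121, 89.0 and 147 in C (-3.96 ± 0.66). Epas1, a hypoxia-inducible factor, changed by -5.12 ± 0.42, with 2 of its 3 probe sets lower. The defining markers of ectoderm were thus present on every C array, where eomes, vegt and gsc were near the bottom of the scale. A pair of cell junction genes gave smaller changes. Cdh1, E-cadherin, had 224, 249 and 108 in the lhx1-AS/AcRA caps and 1352, 733 and 543 in C (-2.16 ± 0.24, adjusted p = 1.85e-05), and jup, the desmosomal and adherens protein plakoglobin, changed by -1.99 ± 0.28. The keratin gene krt8.1, the brightest member that was not called, still read 2884, 3043 and 2235 in the lhx1-AS/AcRA caps, against 2963, 5922 and 3997 in C (adjusted p = 0.0755). Without the experiment I array of lhx1-AS/AcRA, or all of that experiment, it was called lower (0.0338 and 0.00928), as it was after quantile normalization (0.0416).

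The specialised cells of the larval skin had a median of -3.43, the lowest of the 24 lists except with 64 added (-1.31, against -1.37 for epidermis). Of 32 genes 25 were lower (78.1%) and 2, foxa1 and pfkfb3, higher (6.25%), against 17.1 and 14.4% over all probe sets. The list's geometric mean signal was 48.7 to 53.1 on the lhx1-AS/AcRA arrays, against 328 to 555 on the C arrays. The skin of the tadpole holds multiciliated cells, proton-pumping ionocytes and mucus-secreting cells, and genes of each fell. Tekt2 and tekt4, tektins of the ciliary axoneme, fell by 8.48 and 6.96 on the log2 scale. Tekt2 read 8.63, 1.16 and 2.82 in the lhx1-AS/AcRA caps and 1119.9, 661 and 1744 in C, although its other probe set was not called. Atp6v1b1, the proton pump subunit of ionocytes, read 7.08, 37.2 and 1.74 in the lhx1-AS/AcRA caps and 1798, 1306 and 4485 in C (-8.15 ± 0.86, adjusted p = 1.19e-05, limma). Foxi1, the forkhead regulator of ionocytes, named after its values were seen, read 22.8, 1.25 and 7.95 in the lhx1-AS/AcRA caps and 123, 63.2 and 143 in C (-4.09 ± 0.63). Genes of the mucus-secreting cells fell as far. Itln1, a lectin of the mucus, had 134, 88.5 and 88.3 in the lhx1-AS/AcRA caps, against 9013, 12909 and 18613 in C (-6.99 ± 0.39, adjusted p = 1.13e-07). Fut6, a fucosyltransferase, had 20.7, 59.6 and 8.58 in the lhx1-AS/AcRA caps and 1958, 2229.8 and 2691 in C (-6.69 ± 0.49). Otogl2, the mucin-like product of the same cells, was called lower on 3 of its 4 probe sets, at -4.93, -6.12 and -6.28, but not on the one that was brightest over all arrays, with 5896, 5837 and 8925 in the lhx1-AS/AcRA caps and 7314, 6764 and 6709 in C. The probe sets of otogl2 disagreed, and which of them reads the gene was not tested.

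Among the 12 largest decreases were further genes of ectoderm and several with no role known here. Mmp3, a matrix protease, had 3.19, 55.8 and 112 in the lhx1-AS/AcRA caps and 3081, 3851 and 5840.3 in C (-7.24 ± 0.70). Anxa9, a member of the annexin family, changed by -7.17 ± 0.66, cmahp, which is related to a sialic acid hydroxylase, by -8.63 ± 0.44, and tbc1d24.2 by -7.70 ± 0.57. Other entries had no descriptive name. LOC100158288 had 215, 11.2 and 63.4 in the lhx1-AS/AcRA caps and 12615, 6671 and 14776 in C (-7.65 ± 0.52, adjusted p = 4.16e-07, limma). LOC100127337 changed by -9.02 ± 0.68, LOC398451 by -7.46 ± 0.47, fam166b by -7.06 ± 0.73 and XB956263 by -7.00 ± 0.53. The cement gland, the mucus-secreting organ at the front of the tadpole, had its marker genes at high levels in C. Agr2 had 57.6, 44.9 and 46.0 in the lhx1-AS/AcRA caps and 4777, 2597 and 2025 in C (-5.90 ± 0.32), and ag1 had 231, 150.4 and 114 in the lhx1-AS/AcRA caps and 3106, 2536 and 2399 in C (-4.07 ± 0.29). All probe sets of both genes were lower. The 2 members of the cement and hatching gland list that were higher, otx2 and zic1, are shared with the anterior neural plate.

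**Figure D3:**
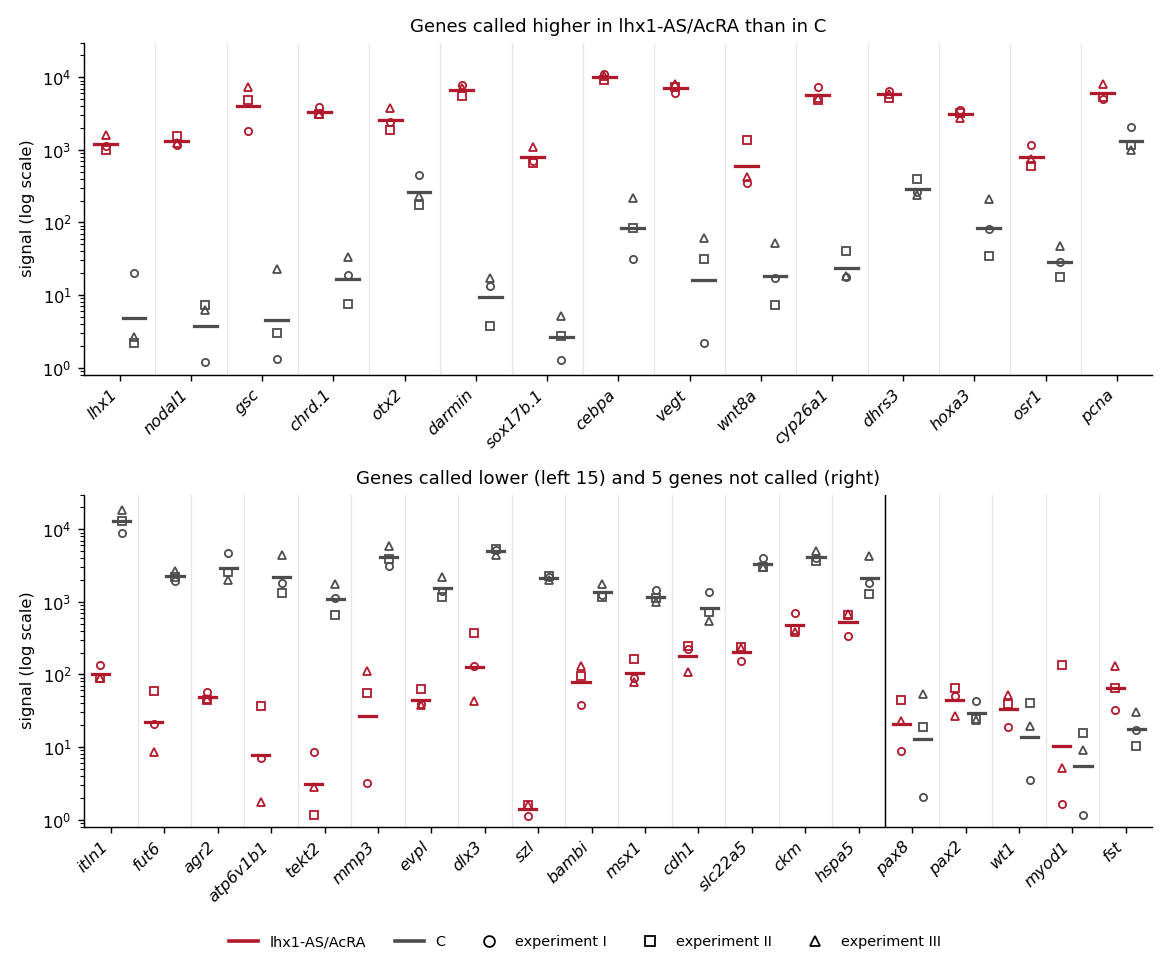
Signal of each array (log scale; circle, square and triangle for experiments I, II and III) with the geometric mean of 3 arrays as a bar, lhx1-AS/AcRA in red on the left and C in grey on the right of each gene. Top, 15 genes called higher; bottom, 15 genes called lower and, right of the line, pax8, pax2, wt1, myod1 and fst, which were not called and reach at most 134 on any array.

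BMP genes fell more often than they rose, with 15 of 35 lower (42.9%, against 17.1% over all probe sets). The other way, 7 were higher (20.0%, near the 14.4% over all probe sets), and the median was -0.69. Szl (sizzled), a secreted feedback inhibitor that BMP induces on the ventral side, had the largest decrease as computed of all genes with 1 name, -10.59 ± 0.35 on 1 probe set (adjusted p = 1.56e-09, limma), with 1.12, 1.57 and 1.57 in the lhx1-AS/AcRA caps and 2214, 2278 and 1989 in C. With 64 added it was at -5.09, against -6.29 for itln1. Its other probe set changed by -5.0. Bambi, a pseudoreceptor that tracks BMP activity, had 37.9, 94.7 and 130.2 in the lhx1-AS/AcRA caps and 1260.5, 1159 and 1786 in C (-4.15 ± 0.30). Smad9, a BMP-specific SMAD, had 48.1, 55.9 and 64.7 in the lhx1-AS/AcRA caps and 1807, 1099.7 and 1658 in C (-4.74 ± 0.40). These feedback genes were on in every C array and low in every lhx1-AS/AcRA array. Msx1, a homeobox target of BMP, had 88.5, 163 and 79.5 in the lhx1-AS/AcRA caps and 1444, 1142 and 996 in C (-3.49 ± 0.28). Ventx2.1, a homeobox gene that BMP switches on in ventral cells, was not called on its brightest probe set, with 1026, 1574 and 1887 in the lhx1-AS/AcRA caps and 1286, 1846 and 805 in C, and was higher by 2.05 on the other. The genes that rose in this list included the antagonist chrd.1 and the organizer ligand admp, given above.

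Wnt and FGF genes rose more often than they fell. Of 49 Wnt genes 16 were higher (32.7%) and 2 lower (4.08%), against 14.4 and 17.1% over all probe sets. Their median was 0.83, and the 16 held ligands, receptors and antagonists together. Sfrp1, a secreted antagonist, had 452, 793 and 335 in the lhx1-AS/AcRA caps, against 7.08, 24.8 and 54.4 in C (4.54 ± 0.66, adjusted p = 0.000156, limma). Fzd8, a receptor of anterior ectoderm and endoderm, was bright in both groups, with 3682, 2389 and 5707 in the lhx1-AS/AcRA caps and 1734, 1718 and 1134 in C (1.3 ± 0.33). That call was lost without the lhx1-AS/AcRA or the C array of experiment III (adjusted p = 0.0548 and 0.0542) or without both (0.136), where its change was 0.78, and its 2 other probe sets were not called. Ctnnb1, beta-catenin, did not pass (adjusted p = 0.428), although without the experiment II array of lhx1-AS/AcRA or all of that experiment it did (0.0374 and 0.0174). Of 19 FGF genes 12 were higher (63.2%) and 1 lower (5.26%), against the same shares over all probe sets (median 1.82). Fgf20, a ligand, changed by 4.45 ± 1.26, and its call was lost without the experiment I array of lhx1-AS/AcRA (adjusted p = 0.106), that of experiment II (0.0555), the C array of experiment II (0.0977, with a change of 2.85) or all of experiment II (0.136). Fgfr2, a receptor of the epidermis and neural plate, changed by 0.88 ± 0.23, a call that was lost without the block (adjusted p = 0.129), without the experiment III array of lhx1-AS/AcRA (0.0634) and without experiment II (0.0539) or III (0.133). Fgfr4, another receptor, had 1678, 597 and 1087 in the lhx1-AS/AcRA caps and 107, 168 and 87.5 in C (3.15 ± 0.41), with its 3 probe sets higher. Dusp6, the phosphatase that FGF induces to limit its own MAP kinase route, changed by 3.83 ± 0.85, and etv1, an ETS factor of the same route, by 5.05 ± 0.87. Notch genes had 4 of 23 higher (17.4%, near the 14.4% over all probe sets) and 1 lower (4.35%, against 17.1%). The 4 became 2 without experiment III and 9 with arrays scaled to 1 median. The ligand gene jag1 had 3188, 1844 and 743 in the lhx1-AS/AcRA caps and 244, 222 and 453 in C (2.49 ± 0.40), and the target gene hes1 changed by 2.94 ± 0.52.

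Neural genes were called higher more often than lower. Of 51 genes of neural plate and neural crest, 16 were higher (31.4%) and 6 lower (11.8%), with a median of 0.78. Over all probe sets the shares were 14.4 and 17.1%. Sox2, the pan-neural HMG-box gene, had 259.6, 306 and 145 in the lhx1-AS/AcRA caps, against 60.1, 45.4 and 21.3 in C (2.54 ± 0.36, adjusted p = 0.000131, limma). Zic1 and zic2, zinc finger genes of the neural plate border, changed by 3.90 ± 0.49 and 3.16 ± 0.42. Zic2 had 4479.9, 3431 and 2614 in the lhx1-AS/AcRA caps and 723, 226 and 344 in C. Foxd4l1.1, a forkhead gene of the immature neural plate, had 347, 780.2 and 121 in the lhx1-AS/AcRA caps and 2.72, 1.6 and 1.38 in C (7.46 ± 1.2). In the other direction, myt1, a zinc finger gene of primary neurons, changed by -3.99 ± 0.72. Pax3, which marks the neural fold and crest and the somites, had 1 of 5 probe sets higher, 1 lower and its brightest not called (adjusted p = 0.134), although that one was called lower after quantile normalization (0.0446) and without the experiment III array of lhx1-AS/AcRA (0.0371).

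Many genes of the undifferentiated and dividing cell were higher. Of 24 pluripotency genes, 12 were higher and 2 lower (median 1.09), against 14.4 and 17.1% over all probe sets. In lhx1-AS caps, which had met no inducer, 8 of the 24 were called higher than in C and 0 lower by limma. The shares of all probe sets there were 7.44% higher and 10.4% lower. Lin28a, an RNA-binding protein of early embryonic cells, had 7045, 6064 and 5183 in the lhx1-AS/AcRA caps, against 925, 861 and 931 in C (2.74 ± 0.32, adjusted p = 2.85e-05, limma). Pou5f3.2, a POU factor of the Oct4 family, had 1809, 2742 and 1951 in the lhx1-AS/AcRA caps and 952, 1489 and 351 in C (1.43 ± 0.41), a call that was lost without the block (adjusted p = 0.0824), without the experiment I or III array of lhx1-AS/AcRA (0.0604 and 0.0833), the C array of experiment III (0.123, with a change of 0.92) or all of that experiment (0.217). Mycn, a driver of progenitor growth, changed by 3.15 ± 0.52, with its other probe set not called. Klf17, a Krüppel-like factor of the early ectoderm, fell to 154, 534 and 60.8 in the lhx1-AS/AcRA caps, against 723, 1271 and 502 in C (-2.18 ± 0.42), and the groups overlapped by 1 array.

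Of 46 cell cycle genes, 19 were higher (41.3%) and 1 lower (2.17%), against 14.4 and 17.1% over all probe sets (median 0.60). Without experiment III the 19 became 12. Pcna, the sliding clamp of DNA replication, had 5034, 5416 and 8011 in the lhx1-AS/AcRA caps and 2039, 1159 and 1011 in C (2.17 ± 0.29, adjusted p = 7.49e-05, limma). Rrm2.2, a subunit of ribonucleotide reductase, had 1792, 1659 and 2016 in the lhx1-AS/AcRA caps and 590.3, 257 and 334 in C (2.30 ± 0.25). Cdc6, which loads the replicative helicase, had 2779, 2765 and 4652 in the lhx1-AS/AcRA caps and 601, 670.2 and 415 in C (2.58 ± 0.29). None of these 3 replication genes overlapped between the groups. Ccna2, cyclin A, changed by 1.97 ± 0.29, while its other probe set was not called. Mcm3, a helicase subunit, changed by 1.91 ± 0.60, and lost its call without the experiment I or III array of lhx1-AS/AcRA (0.0865 and 0.12), the C array of experiment III (0.15, with a change of 1.17) or either experiment (0.0893 and 0.247). Its partner mcm6 was the 1 gene called lower, at -1.23 ± 0.36, a call that was lost without the block (adjusted p = 0.281), without the lhx1-AS/AcRA or the C array of experiment I (0.125 and 0.13, with a change of -0.72 without the C array), and without experiment I or II (0.119 and 0.0634). Cdk4, a kinase of G1, did not pass (adjusted p = 0.0762), but did without the C array of experiment I (0.0356) or all of that experiment (0.0212), with arrays scaled to 1 median (0.0167) and on the 6 compared arrays alone (0.0345).

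Of 39 matrix genes, 7 were higher (17.9%, near the 14.4% over all probe sets) and 1, mmp3, was lower (2.56%, against 17.1%). Of 17 genes of cadherins, protocadherins and their partners, 4 were higher (23.5%) and 6 lower (35.3%), with a median of -0.67. Without the block the counts were 2 and 4, and with an array or experiment left out 3 to 7 were lower. The 6 included cdh1 and jup, given above, and the 4 included pcdh8.2. Col9a1, a collagen of the notochord sheath and cartilage, had 325, 2859.7 and 2704 in the lhx1-AS/AcRA caps, against 2.78, 17.4 and 3.06 in C (8.01 ± 0.69, adjusted p = 2.26e-06, limma), with experiment I far below the others. Fbln1, a fibulin of basement membranes, had 1163, 463 and 466 in the lhx1-AS/AcRA caps and 16.4, 6.4 and 46.7 in C (5.21 ± 0.53). Vcan, the proteoglycan versican, changed by 4.75 ± 0.79, and col3a1, a fibrillar collagen, by 3.96 ± 0.65, with 2 of its 3 probe sets not called. Sparc, a matrix protein of mesenchyme, overlapped between the groups, with 309.6, 495 and 151 in the lhx1-AS/AcRA caps and 475, 188 and 636 in C (adjusted p = 0.587), although without experiment II it was called lower (0.0474). Cdh11, a cadherin of mesenchyme, had 412, 427 and 235 in the lhx1-AS/AcRA caps and 12.1, 24.8 and 34.7 in C (3.98 ± 0.58). Cdh2, N-cadherin, was not called on its brightest probe set, with 133, 85.4 and 114 in the lhx1-AS/AcRA caps and 300.3, 434 and 127 in C, and was higher by 1.62 on another of its 4. With 16 or 64 added, its brightest probe set was called lower (0.0418 and 0.0301).

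Genes of stress and cell death were called both ways. Of 30, 6 were higher (20.0%) and 5 lower (16.7%), shares near the 14.4 and 17.1% over all probe sets. The 6 became 3 without the experiment III array of lhx1-AS/AcRA and 2 without that experiment, and the 5 became 3 without the C array of experiment II or that experiment. Hspa5, the chaperone of the endoplasmic reticulum, had 339, 657 and 682 in the lhx1-AS/AcRA caps, against 1798, 1279.8 and 4277 in C (-2.01 ± 0.38, adjusted p = 0.00136, limma), and dnajc3, its co-chaperone, changed by -2.03 ± 0.29. The other hspa5 probe set was not called. Sesn1, a sestrin that p53 induces, had 706, 373 and 433 in the lhx1-AS/AcRA caps and 65.4, 71.3 and 54.7 in C (2.93 ± 0.33), with its other probe set not called, while mdm4, a p53 inhibitor, changed by -1.95 ± 0.45. The heat shock gene hspa1l read 7448, 7883 and 9528 in the lhx1-AS/AcRA caps and 8940.2, 8914 and 10245 in C and was not called (adjusted p = 0.402). Injection was a part of this contrast, and what share of these changes it made was not tested within it.

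Housekeeping genes were not all level. Of 24, 6 were higher and 2 lower with the block, against 14.4 and 17.1% over all probe sets. Without the block 2 were higher and 1 lower. Without the experiment I array of lhx1-AS/AcRA 3 were higher, against 10 with arrays scaled to 1 median. Actb, beta-actin, read 12835, 12002 and 15139 in the lhx1-AS/AcRA caps and 10114, 9405 and 13020.2 in C (adjusted p = 0.113, limma), although with arrays scaled to 1 median it was called higher at 0.54, and with the dimmest 40% of probe sets left out at 0.30. Gapdh, a glycolytic enzyme, changed by 1.02 ± 0.21 and rplp0, a ribosomal protein, by 0.63 ± 0.18, and neither was called without the block (adjusted p = 0.225 and 0.0725). Gapdh was also lost without experiment III (0.0505), and rplp0 without the experiment I or III array of lhx1-AS/AcRA (0.0547 and 0.0757), the C array of experiment I or II (0.0748 and 0.0674), or experiment II or III (0.0785 and 0.0903). Eif4a2 and tubb, a translation factor and a tubulin, were called at 1.32 ± 0.20 and 1.2 ± 0.24, and sdha of the respiratory chain at -0.99 ± 0.21, with the other probe set of tubb and of sdha not called.

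The other 6 arrays allowed the combined change to be set beside that of each treatment alone. In the same model, AcRA caps had 819 probe sets higher than C (5.29%) and 799 lower (5.16%), and lhx1-AS caps had 1152 higher (7.44%) and 1609 lower (10.4%). The 3 comparisons share the C arrays, so their values are only placed side by side, and the difference between the combined change and the AcRA change is tested by lhx1-AS/AcRA against AcRA, which had 1082 probe sets higher (6.98%) and 1850 lower (11.9%). Whether the combined change differed from the sum of the single changes was tested too, with 104 probe sets above the sum (0.671%) and 135 below it (0.871%). Median signals were 107 to 121 on the lhx1-AS/AcRA arrays and 106 to 123 on the lhx1-AS arrays. They were 129 to 138 on the AcRA arrays and 124 to 149 on the C arrays. The split of the main comparison moved with the scaling, and the counts of these other comparisons were not repeated under other scalings.

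For several genes of the retinoic acid response and the trunk, and for agr2 of the cement gland, no difference was detected between the induced groups. Ag1, also of the cement gland, was not one of these. It changed by -4.07 ± 0.29 in lhx1-AS/AcRA caps and by -2.84 in AcRA caps over C. Its combined change also lay below the sum of the single changes (-1.79 ± 0.41, adjusted p = 0.0475, limma), a call that was lost without the block. Cyp26a1 changed by 7.92 in lhx1-AS/AcRA caps and 7.91 in AcRA caps over C, with a difference of 0.01 ± 0.42 (adjusted p = 0.991, limma). Hoxa2 changed by 4.52 in lhx1-AS/AcRA caps and 4.52 in AcRA caps, with a difference of 0.00 ± 0.31 (adjusted p = 0.998). Dhrs3 differed by -0.15 ± 0.20, ror2 by 0.03 ± 0.62, col9a1 by 0.13 ± 0.69 and agr2 by -0.12 ± 0.32, none of them called. The standard errors of these differences, 0.31 for hoxa2 and 0.69 for col9a1, set how small a difference could have been seen. Other posterior genes were higher over C in both groups but lower on the lhx1-AS/AcRA arrays than on the AcRA arrays. Wnt8a read 355, 1387 and 428 on the lhx1-AS/AcRA arrays and 2321, 2929 and 3608 on the AcRA arrays (-2.29 ± 0.58, adjusted p = 0.0154). Cdx4 read 134, 503 and 37.1 on the lhx1-AS/AcRA arrays and 1156, 1353 and 1519.7 on the AcRA arrays (-3.30 ± 0.84), and hoxc6, a trunk Hox gene, 47.0, 168 and 89.8 on the lhx1-AS/AcRA arrays and 193, 317 and 471 on the AcRA arrays (-1.78 ± 0.56). The differences of cdx4 and hoxc6 were not called without the block (adjusted p = 0.0673 and 0.211). The other probe set of hoxc6 was not called over C in lhx1-AS/AcRA caps (1.24 ± 0.70, adjusted p = 0.21, limma).

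A number of dorsal and endodermal genes were higher on the lhx1-AS/AcRA arrays than on the AcRA arrays, while most members of both lists were not called. Gsc, given above for lhx1-AS/AcRA, read 27.8, 38.6 and 4.49 on the AcRA arrays, where it was not called over C (adjusted p = 0.361, limma), and the lhx1-AS/AcRA arrays exceeded them by 7.89 ± 1.09 (adjusted p = 0.00032). Frzb was higher in the lhx1-AS/AcRA-labelled caps than in the AcRA caps by 5.34 ± 0.65, admp by 5.26 ± 0.73, lefty by 5.02 ± 0.80, gata4 by 4.73 ± 0.82, foxa4 by 4.38 ± 0.76, cebpa by 4.71 ± 0.49 and darmin by 4.18 ± 0.67, all called. In the endoderm list 10 of 22 genes were higher in the lhx1-AS/AcRA-labelled caps than in the AcRA caps and 0 lower by limma, and 0 were lower at an unadjusted p under 0.05. In the organizer list 11 of 34 were higher and 0 lower by limma, and 1 was lower at an unadjusted p under 0.05. For both lists, the shares called by limma over all probe sets were 6.98% higher and 11.9% lower. Otx2 and fzd8 were called in opposite directions over C in the 2 induced groups. As given above, the higher call of fzd8 was not shared by its 2 other probe sets and was lost without experiment III. Fzd8 read 3682, 2389 and 5707 on the lhx1-AS/AcRA arrays, 68.4, 26.4 and 57.5 on the AcRA arrays, 1786, 1598 and 3081 on the lhx1-AS arrays and 1734, 1718 and 1134 on the C arrays, so it was higher than C by 1.3 with the injection and lower by 5.0 without it, a difference of 6.29 ± 0.33 (adjusted p = 4.91e-07). Otx2 read 46.0, 141 and 24.0 on the AcRA arrays, below C by 2.30, and the difference to the lhx1-AS/AcRA arrays was 5.57 ± 0.54. Osr1 was higher on the lhx1-AS/AcRA arrays than on the AcRA arrays, which read 99.6, 163 and 65.6, by 2.97 ± 0.59 (adjusted p = 0.00372).

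**Figure D4:**
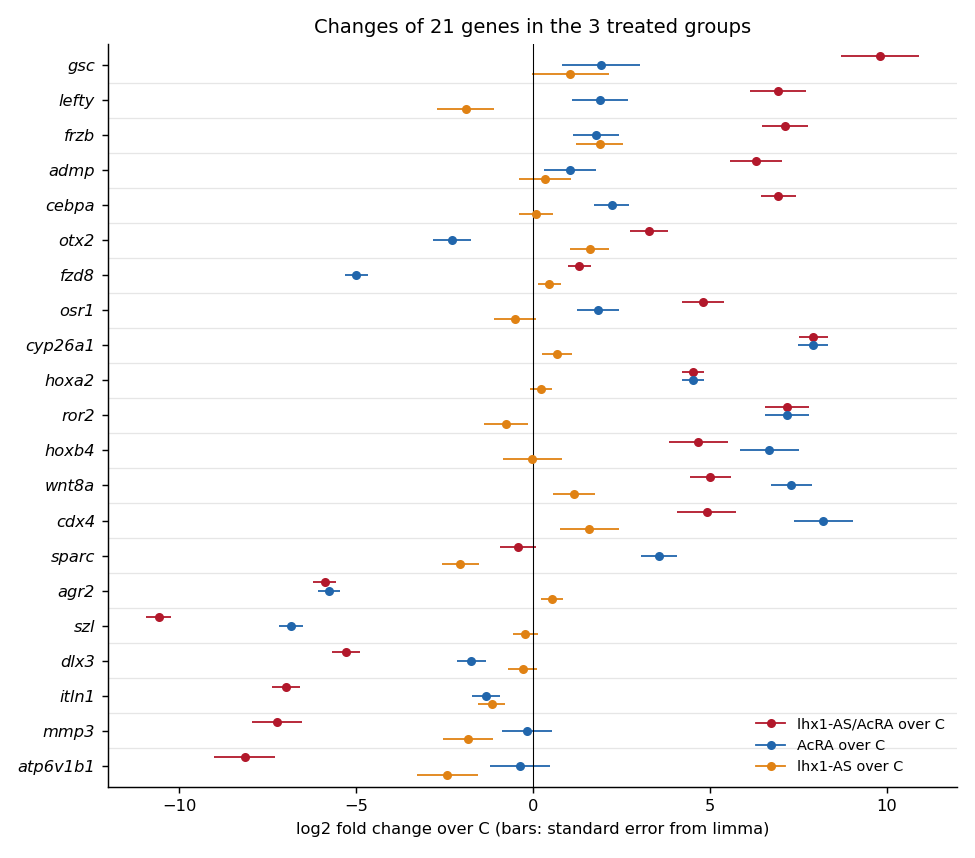
Log2 fold change over C of 21 genes (dots, with standard errors from limma as bars) in lhx1-AS/AcRA caps (red), AcRA caps (blue) and lhx1-AS caps (orange). Cyp26a1, hoxa2, ror2 and agr2 have red and blue dots close together, while gsc, fzd8, sparc, itln1, mmp3 and atp6v1b1 have them far apart.

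Some genes that were higher than C in AcRA caps were not called in the combined change. Sparc, higher in AcRA caps by 3.55 (adjusted p = 0.000533, limma), read 309.6, 495 and 151 on the lhx1-AS/AcRA arrays and 4209, 4398 and 4939 on the AcRA arrays, a difference of -3.98 ± 0.52 (adjusted p = 0.000208). Cdh2, higher in AcRA caps by 2.58, read 133, 85.4 and 114 on the lhx1-AS/AcRA arrays and 1346, 1308 and 2021 on the AcRA arrays (-3.81 ± 0.69, adjusted p = 0.0019). The groups were apart by a wide margin for both genes, each read on its brightest probe set. As given above, another probe set of cdh2 was called higher in lhx1-AS/AcRA caps than in C, by 1.62. Myod1, higher in AcRA caps by 4.59, read 1.65, 134 and 5.17 on the lhx1-AS/AcRA arrays and 117, 362 and 54.3 on the AcRA arrays (-3.66 ± 0.99, adjusted p = 0.0204), a difference that was not called without the block (adjusted p = 0.147). Lmo2, a cofactor of blood and vessel genes, and calb1, a calcium-binding protein of the distal tubule, were lower in the lhx1-AS/AcRA-labelled caps than in the AcRA caps by 2.82 and 2.41, while neither was called over C in the lhx1-AS/AcRA (adjusted p = 0.226 and 0.184) or the AcRA caps (0.292 and 0.482), and neither difference was called without the block (0.0544 and 0.191).

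Skin genes were lower on the lhx1-AS/AcRA arrays than on the AcRA arrays in many cases. In the epidermis list 21 of 46 genes were lower in the lhx1-AS/AcRA-labelled caps than in the AcRA caps and 1 higher, and in the skin cell list 12 of 32 and 1. The shares over all probe sets were 11.9% lower and 6.98% higher. Mmp3 read 3614, 3063 and 4343 on the AcRA arrays, and changed by -7.24 in lhx1-AS/AcRA caps, -0.18 in AcRA caps and -1.84 in lhx1-AS caps over C. Atp6v1b1 changed by -8.15 in lhx1-AS/AcRA caps, -0.37 in AcRA caps and -2.43 in lhx1-AS caps over C. Itln1 changed by -6.99 in lhx1-AS/AcRA caps, -1.33 in AcRA caps and -1.18 in lhx1-AS caps. Fut6 changed by -6.69 in lhx1-AS/AcRA caps, -1.05 in AcRA caps and -1.24 in lhx1-AS caps. Each of these 4 genes was called lower in the lhx1-AS/AcRA-labelled caps than in the AcRA caps and below the sum of the single changes, although without the block the second call held for itln1 and fut6 and not for mmp3 and atp6v1b1 (adjusted p = 0.104 and 0.0773). Of the cell cycle genes, 11 of 46 were higher in the lhx1-AS/AcRA-labelled caps than in the AcRA caps and 1 lower, against 6.98 and 11.9% of all probe sets. In lhx1-AS caps 13 of 46 were higher than in C and 2 lower, against 7.44 and 10.4% of all probe sets. Pcna changed by 2.17 in lhx1-AS/AcRA caps, 0.63 in AcRA caps and 1.92 in lhx1-AS caps, and sesn1 by 2.93 in lhx1-AS/AcRA caps, 0.45 in AcRA caps and 2.46 in lhx1-AS caps. Both genes were called in lhx1-AS caps, which had met no inducer. Some mesendodermal genes were also called higher there than in C, by less than in the combined change. These were eomes (3.71, adjusted p = 0.017, limma), vegt (2.48, 0.0258), sox17b.1 (2.19, 0.0235) and aplnr (2.07, 0.00906). Without the block the calls of vegt and sox17b.1 were lost (0.128 and 0.136). Gsc, nodal1, darmin and cer1 were not called in lhx1-AS caps (0.566, 0.882, 0.85 and 0.247).

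**Figure D5:**
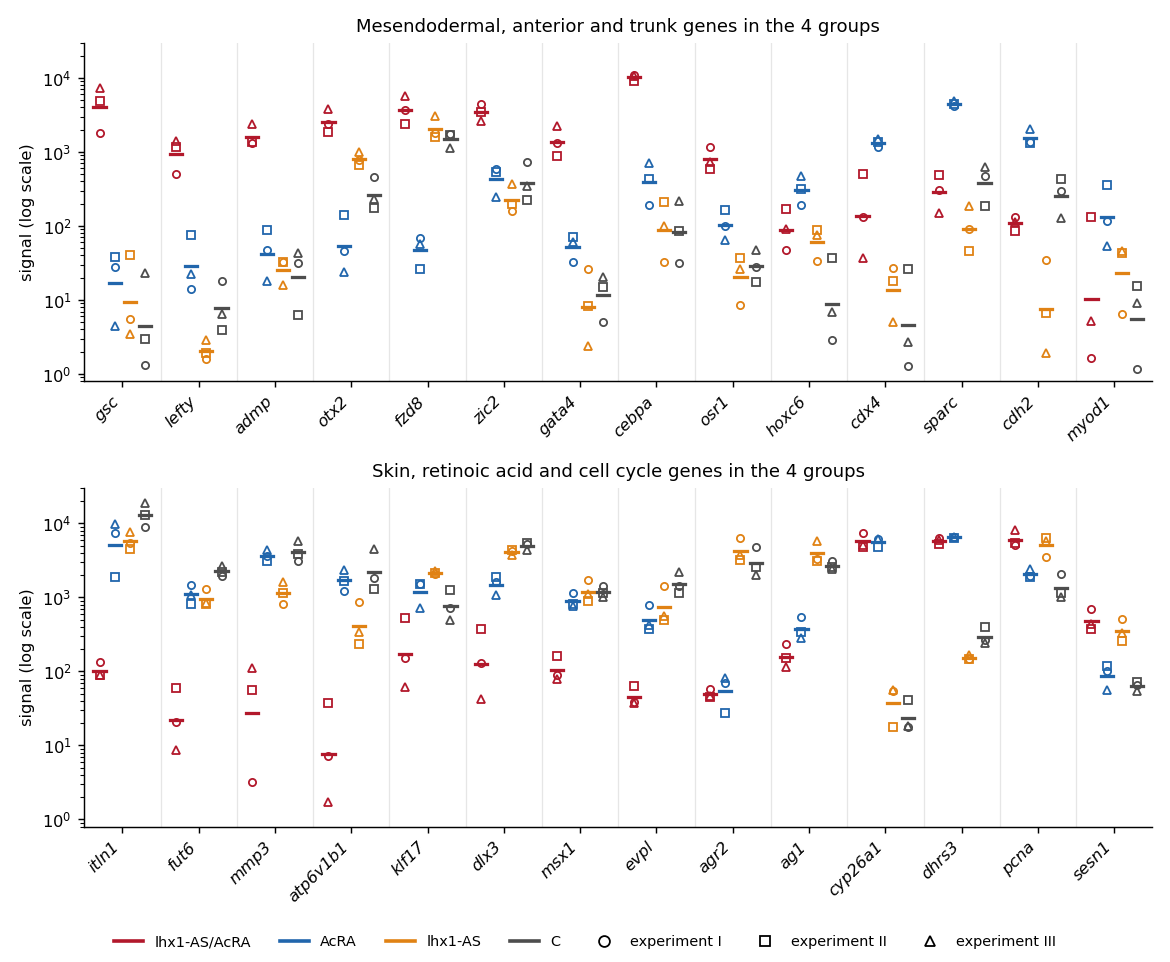
Signal of each array (log scale; circle, square and triangle for experiments I, II and III) with the geometric mean as a bar, in lhx1-AS/AcRA (red), AcRA (blue), lhx1-AS (orange) and C (grey) from left to right. Top, genes of mesendoderm, head and trunk; bottom, genes of skin, retinoic acid breakdown, cell cycle and stress. Gsc and cebpa are brightest in red, cdx4 and sparc in blue, and cyp26a1 and dhrs3 are level between red and blue.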

How the data were processed

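RNA of 12 arrays of the first-generation Affymetrix Xenopus laevis array, 3 in each of 4 groups, was analysed as deposited. The authors quantified the 1-colour arrays with GCOS (version not given in the sources used here) and deposited linear signal intensity values per probe set, scaled so that the mean was 500.1 on every array once 2% of values at each end had been left out. No detection calls were used here. Signals under 1 (555 values, 0.299%) were set to 1, log2 was taken, and 120 control probe sets of 15611 were left out. The platform annotation gave 1 gene symbol to 9304 probe sets, several to 195 and none to 6112, and 2 symbols were updated. The endings .L and .S, which mark gene copies in this frog, were removed, so both copies shared a name. Agreement or disagreement between probe sets of a name was not split by copy. A gene was read by its brightest probe set (mean of log2 over all arrays), except that the 12 largest changes each way were ranked over all probe sets.

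All 12 arrays entered 1 linear model in limma 3.58.1 (R 4.3.3) with 4 group means, the experiment as a block and a variance trend. The p-values were adjusted by Benjamini-Hochberg over 15491 probe sets and called under 0.05. The code of the fit was run on simulated data with known changes, and the outcome is not used as support here. The experiment number pairs the arrays by the sample titles. Deviations from group means correlated at 0.152 to 0.270 between arrays of 1 experiment in different groups (18 pairs) and at -0.190 to -0.0032 between experiments (36 pairs). Whether the arrays of a group came from separate clutches is not stated, so the p-values measure the spread between these arrays, and 3 arrays a group limit the precision. The number of arrays, and no read depth, sets the error.

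Genes were named by a rule: lhx1 and genes the study names for explants or kidney, the 12 largest called changes each way with a mean signal of at least 500 in 1 group, and from each of 24 gene lists up to 5 called members, the brightest member not called and up to 3 members called between lhx1-AS/AcRA and AcRA. Not every gene so picked is described. Members and lists were chosen with earlier results of these data known. The lists share genes and were not tested as sets. Promoter sequences were not used here, so a planned motif count was not run.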

Additional observations from a re-analysis of the deposited data

Results flagged for a closer look

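For 28 genes described above the change in lhx1-AS/AcRA caps differed from the sum of the AcRA change and the lhx1-AS change, which is the same as a difference between the AcRA response of injected and of uninjected caps (interaction term, limma with the experiment block, adjusted p over 15491 probe sets). Values are the combined change minus that sum on the log2 scale, with standard errors. Over all probe sets 104 lay above the sum and 135 below it.

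Of the genes above the sum, lefty exceeded it by 6.94 ± 1.13 (adjusted p = 0.0081), gsc by 6.84 ± 1.55 (adjusted p = 0.0469) and admp by 4.93 ± 1.04 (adjusted p = 0.0321). These 3 encode organizer products, and all were dim in both AcRA and C caps. Fzd8 exceeded it by 5.83 ± 0.46 (adjusted p = 6.96e-05), otx2 by 3.98 ± 0.76 (adjusted p = 0.0201) and zic2 by 3.76 ± 0.60 (adjusted p = 0.00737). The values were 5.27 ± 1.16 for gata4 (adjusted p = 0.0415), 4.63 ± 0.69 for cebpa (adjusted p = 0.00578) and 4.43 ± 0.95 for darmin (adjusted p = 0.0354). Smaller values were 1.56 ± 0.32 for fgfr2 (adjusted p = 0.028) and 1.47 ± 0.28 for atp1b1 (adjusted p = 0.0187).

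Of the 17 genes below the sum, 8 were of the epidermis and skin cell lists, namely itln1, fut6, atp6v1b1, tekt2, dlx3, evpl, cdh1 and msx1. The naming rule picked genes by their combined change or by their difference between the induced groups, so this make-up depends on that choice. In the whole lists 11 of 46 epidermal and 4 of 32 skin cell genes were called below the sum, against 0.871% of all probe sets. Above it were 2 and 0, against 0.671%. The mucus gene itln1 had -4.49 ± 0.55 (adjusted p = 0.00191), fut6 -4.40 ± 0.69 (adjusted p = 0.00713), and the ionocyte gene atp6v1b1 -5.35 ± 1.21 (adjusted p = 0.0469). The values were -3.24 ± 0.68 for tekt2 (adjusted p = 0.0309), -3.24 ± 0.57 for dlx3 (adjusted p = 0.0132), -2.40 ± 0.54 for evpl (adjusted p = 0.0469) and -1.49 ± 0.34 for cdh1 (adjusted p = 0.0475). Msx1 had -3.11 ± 0.40 (adjusted p = 0.0022), szl -3.52 ± 0.49 (adjusted p = 0.00441), klf17 -4.28 ± 0.59 (adjusted p = 0.00441) and the cement gland gene ag1 -1.79 ± 0.41 (adjusted p = 0.0475). Szl was dim in both induced groups, with 1.12, 1.57 and 1.57 on the lhx1-AS/AcRA arrays and 18.3, 14.7 and 24.7 on the AcRA arrays. Its value thus depends on how signals that dim are read, and the interaction was not read with an offset added. Mmp3 had -5.23 ± 0.99 (adjusted p = 0.0189), anxa9 -5.04 ± 0.93 (adjusted p = 0.0175) and cmahp -3.82 ± 0.62 (adjusted p = 0.00782). LOC100158288 had -5.09 ± 0.73 (adjusted p = 0.00511) and LOC398451 -4.64 ± 0.67 (adjusted p = 0.00513).

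Hoxc6, on its brightest probe set, also lay below the sum, by -4.54 ± 0.79 (adjusted p = 0.0118). It read 47.0, 168 and 89.8 on the lhx1-AS/AcRA arrays, 193, 317 and 471 on the AcRA arrays, 33.6, 89.3 and 74.8 on the lhx1-AS arrays and 2.84, 37.0 and 6.88 on the C arrays, and was thus above C after the injection alone as well. Without the experiment block the interaction was called for lefty, otx2, fzd8, zic2, itln1, fut6, klf17, msx1 and szl and was not called for the other 19 genes.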

How the results depend on the processing

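Without the replicate block the counts were 1403 higher and 1915 lower, against 2236 and 2646 with it, and of the 124 called genes described above 8 lost their call (fgfr2, gapdh, hoxb7, hoxc10, mcm6, pou5f3.2, rara and rplp0). The methods' t-test called 427 higher and 655 lower after Benjamini-Hochberg and 2008 and 2344 at an unadjusted p under 0.05. It was run on the 6 compared arrays with no sharing of spread between probe sets. Leaving out 1 array or 1 experiment gave 1284 to 1904 higher and 1765 to 2381 lower, with both minima without experiment III. The lhx1 change ranged between 6.91 and 9.49 with an array or experiment left out and was called each time. The other settings, quantile normalization, scaling to 1 median, 16 or 64 added to the signal, no variance trend, the 6 compared arrays alone and the dimmest 40% left out, kept both counts within 1.5 times. Of the 124 called genes, 108 kept their call under every setting but the t-test, and none changed direction. Under the t-test 64 of the 124 lost their call after Benjamini-Hochberg and 12 at an unadjusted p.

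Genes that were not called could change sign. With arrays scaled to 1 median atp1b1 was at 0.17, hspa1l at 0.052, ncor1 at 0.15 and otogl2 at 0.20. With arrays or experiments left out, the changes ranged over -0.24 to 0.075 for atp1b1, -0.055 to 0.82 for ctnnb1, -0.27 to 1.81 for myod1, -0.21 to 0.039 for ncor1, -0.22 to 0.65 for nrp1, -0.28 to 0.11 for otogl2, -0.41 to 1.70 for pax8, -1.35 to 0.39 for sparc and -0.28 to 0.50 for ventx2.1. The values of turned sign had adjusted p of at least 0.39.

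Leaving out the dimmest 40% of probe sets removed many regulators by construction, and the counts higher became 7 for activin and Nodal, 4 for Hox, 7 for early mesoderm, 9 for the organizer, 9 for early kidney, 7 for FGF, 3 for muscle, 4 for lateral plate and 2 for Notch. Signals under about 50 carry little information on these arrays: the change of hrg was 6.54 with 16 added and 4.73 with 64 added, against 9.78 as computed, whereas that of itln1, bright in C, was -6.78 and -6.29, against -6.99. Counts of 3 or fewer in the smaller direction of a list moved by at most 2 genes when an array or experiment was left out.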
